A study of Arabidopsis thaliana with 4 samples.

Results

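After 4 h without phosphate, Arabidopsis thaliana leaves were set against leaves that had kept full nutrients for the same 4 h. The comparison rests on 2 of the 4 arrays of the study, and they were chosen by their labels alone: the array labelled no phosphate, 4 h, and the array labelled full nutrients, 4 h. Of 8247 probe sets analysed on these Affymetrix arrays, 4478 were bright enough on at least 1 of both arrays to be compared. A probe set is a group of short probes that report 1 transcript, or a few similar ones, and its value here is a linear intensity with no physical unit.

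Both arrays hold RNA of rosette leaves of the accession Col-5. Plants had grown on sucrose agar in a day of 16 h until day 21 and were then kept in hydroponics under constant light, at 24 C and 80% humidity. For the no-phosphate group the solution lacked potassium phosphate and had 0.125 mM additional potassium sulphate, and the full-nutrient solution had 0.25 mM potassium phosphate. The age label counts the hours from nutrient removal in both groups. The other 2 arrays, no phosphate and full nutrients at 100 h, serve below only to place the 4 h values. How many plants an array represents is not given in the sources used here. With 1 array in each group there is no replicate, so sizes are given with no p-value, and precision is limited by the number of arrays. The array titles carry short codes (PO6 for no phosphate and NPK for full nutrients at 4 h, P72 and P24 at 100 h) whose numbers differ from the labelled hours. The array labelled full nutrients at 100 h, P24, has a code of the no-phosphate kind rather than one like NPK. The treatment and age labels decided the groups, so every 100 h ratio below, and every control made from both full-nutrient arrays, rests on an array whose title goes against its label.

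Plants take up phosphorus as inorganic phosphate and store much of it in the vacuole, which can buffer the cytosol for some time after the supply stops. When phosphate in the cell falls, SPX-domain proteins release the transcription factor PHR1, which then switches on genes for phosphate transporters, acid phosphatases, RNases, lipid remodelling and signalling RNAs. In leaves, long phosphate shortage is known for slower growth, starch and anthocyanin build-up and recycling of old tissue.

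The tissue label was set against marker genes. The leaf mesophyll genes on the array were bright in both groups: RCA, the activase of Rubisco, was at 4585.8 without phosphate and 5088.0 with full nutrients, and PSAN, a photosystem I subunit, was at 1414.5 without phosphate and 2277.9 with full nutrients. Of the 14 leaf genes listed, 3 had a named probe set (RCA, PSAN and PSBW). PSBW differed more, at 1625.4 and 3963.9 without phosphate and at 5785.3 and 5358.3 with full nutrients on its 2 probe sets. Of 4 listed markers of ageing leaves, 1 had a named probe set. That marker, SAG29, was at 1085.4 without phosphate and 177.7 with full nutrients, so the markers were not alike in both groups. The root marker that could be read, AT1G12080, was at 4.8 without phosphate and 7.9 with full nutrients, near the floor of 7.25 below which intensities were set to that value. A guard cell marker, AT1G22690, was at 81.2 without phosphate and 120.9 with full nutrients, and no listed marker of flowers, phloem or epidermis had a named probe set. In whole leaves, fewer cells of a type and less RNA per cell cannot be told apart.

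Technical measures differed between the 4 h arrays. The scanner background was 56.94 without phosphate and 49.74 with full nutrients. All 9 spike-in probe sets, read from RNA that is added before hybridisation, were lower without phosphate, with log2 ratios that averaged -0.515 ± 0.119 (SD, 9 probe sets). The ratio of 3' to 5' signal, which rises as RNA degrades, was 2.61 without phosphate and 4.07 with full nutrients for GAPDH, and 2.57 without phosphate and 3.09 with full nutrients for ubiquitin. Their part in the differences below was not tested. Scaling the arrays to the spike-ins would add the size of that mean to every ratio whose arrays are both above the floor, and would turn small negative ratios positive.

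On the arrays as deposited, all scaled to the same trimmed mean, most leaf transcripts had similar signals after 4 h with and without phosphate. Among those that differed by 2-fold or more, most were lower without phosphate. Both statements depend on that scaling: scaling to the spike-ins gave 742 higher and 112 lower. The log2 ratio, no phosphate over full nutrients, had a median of 0.02 and an SD of 0.65 over the 4478 probe sets, and 73.6% of them lay within 1.5-fold. By the rule of size (a ratio of at least 2-fold, with the brighter array at or above the median level of 22.45), 99 probe sets were higher without phosphate, 2.21% of those compared, and 298 were lower, 6.65%. The tail of low ratios was also longer. A ratio of at least 4-fold was reached by 10 higher and 57 lower probe sets, and a ratio of at least 8-fold by 1 higher and 15 lower ones.

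**Figure D1:**
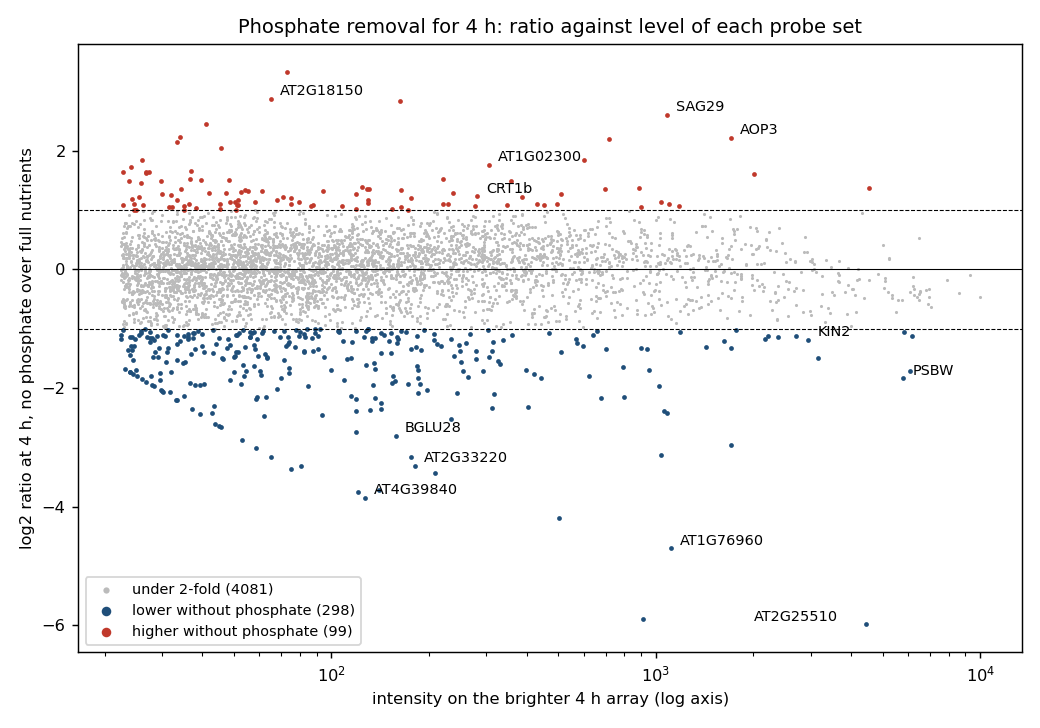
Each point is a probe set; the horizontal axis is the intensity on the brighter 4 h array (log axis) and the vertical axis the log2 ratio, no phosphate over full nutrients, with dashed lines at 2-fold. The 298 lower points reach to -5.98 (AT2G25510) and the 99 higher points to 3.33; the slanted lower edge on the left is formed by probe sets at the floor of 7.25 without phosphate.

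The excess of lower signals was present at every level. Among probe sets with a brighter array between 22.45 and 50, 2.97% were higher and 7.15% lower, and among those at 1000 or more, 2.15% were higher and 6.77% lower. Just outside the level lay 5 probe sets with a brighter array at 22.4, and just inside it 8 with 22.5. The split depended on the scaling: 24.94% of the probe sets called were higher as deposited, 31.58% with quantile normalization and 86.89% with spike-in scaling, which gave 742 higher and 112 lower. With the mean of both full-nutrient arrays, 4 h and 100 h, as the control, 47.94% were higher.

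The largest differences were low signals without phosphate at 4 h. AT2G25510, a gene of unknown function, was at 70.1 without phosphate and 4438.1 with full nutrients at 4 h, and at 4452.4 without phosphate and 4554.7 with full nutrients at 100 h. It was among the brightest leaf transcripts on those 3 arrays and low without phosphate at 4 h alone, with a log2 ratio of -5.98. AT1G76960, also of unknown function, was at 42.9 without phosphate and 1114.8 with full nutrients at 4 h, and at 3366.6 without phosphate and 799.9 with full nutrients at 100 h. It was thus 26.0-fold lower without phosphate at 4 h. AT2G33220, a gene of mitochondrial complex I, was at 18.2 without phosphate and 180.9 with full nutrients at 4 h, and at 549.0 without phosphate and 121.5 with full nutrients at 100 h. AT4G39840 (log2 ratio -3.85), AT2G22510 (-3.31) and AT5G49440 (-3.17) had the same form, with the no-phosphate array at 4 h at least 2-fold below all 3 others.

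The next lowest genes had varied roles. CP5, which encodes a lipid-binding START-domain protein, was measured by 2 probe sets. These were at 202.5 and 371.4 without phosphate and at 1084.8 and 938.8 with full nutrients, and the ratios of -2.42 and -1.34 had the same direction. AT2G44290, a gene of the lipid transfer protein family, was at 62.2 without phosphate and 313.7 with full nutrients (-2.33). AT4G02530, which encodes a protein of the thylakoid lumen, was at 27.7 without phosphate and 141.9 with full nutrients (-2.36). Methionine sulphoxide reductases repair oxidised methionine in proteins. MSRB5 was at 73.7 without phosphate and 316.5 with full nutrients, 4.29-fold lower, and its neighbour MSRB6 was at 6.0 without phosphate and 45.6 with full nutrients, at least 6.29-fold lower since its no-phosphate value lay under the floor. Both had higher signals without phosphate than with full nutrients at 100 h. There MSRB5 was at 568.2 without phosphate and 265.5 with full nutrients, and MSRB6 at 132.9 without phosphate and 42.3 with full nutrients.

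AT1G61190, a gene of the NBS-LRR class of disease resistance proteins, was at 25.4 without phosphate and 131.4 with full nutrients (-2.37). PIP, a proline iminopeptidase, which removes proline from the ends of peptides, was at 13.2 without phosphate and 58.9 with full nutrients (-2.16). AT4G02540 was at 11.2 without phosphate and 61.8 with full nutrients (-2.46). In all 3 genes the no-phosphate array at 4 h was the lowest of the 4. AT1G78820, a lectin-like gene read by 2 probe sets, had log2 ratios of -2.15 and -1.04. AT2G40620, a bZIP transcription factor gene, had -2.07 and -0.89 on its 2 probe sets, of which the second did not reach 2-fold.

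In other lower genes it was the full-nutrient array at 4 h that stood high. AT5G39580, a class III peroxidase gene, was at 10.7 without phosphate and 140.3 with full nutrients at 4 h, and at 1.4 without phosphate and 18.3 with full nutrients at 100 h (log2 ratio at 4 h, -3.71). BGLU28, a beta-glucosidase, was at 22.6 without phosphate and 157.7 with full nutrients at 4 h and at 0.7 without phosphate and 1.6 with full nutrients at 100 h. AT2G38240, which encodes an oxygenase that inactivates jasmonate, was at 80.7 without phosphate and 402.3 with full nutrients at 4 h, and at 0.7 without phosphate and 6.0 with full nutrients at 100 h. Both 4 h arrays were thus above both 100 h arrays for BGLU28 and AT2G38240. With the mean of both full-nutrient arrays as the control the ratio of AT2G38240 turned to 0.58, that of BGLU28 came under 2-fold (-0.58) and that of AT5G39580 was -2.24.

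AT3G47380, a pectin methylesterase inhibitor gene, was read by 3 probe sets, at 30.1, 34.9 and 30.1 without phosphate and at 142.5, 134.5 and 109.3 with full nutrients. All 3 ratios lay between -2.24 and -1.86, and the 100 h arrays, from 29.4 to 49.0, were near the no-phosphate array at 4 h. AT4G24350, of the phosphorylase superfamily, was at 43.7 and 178.6 without phosphate and at 184.4 and 621.0 with full nutrients on its 2 probe sets (-2.08 and -1.80). With the mean control 1 probe set of AT3G47380 (-0.85) and 1 of AT4G24350 (-0.95) came under 2-fold. The neighbour of AT4G24350, AT4G24340, was at 1.8 without phosphate and 43.9 with full nutrients on 1 probe set, at least 6.05-fold lower, and under the floor on all 4 arrays on the other. WRKY29, a transcription factor of the flagellin response, was at 2.7 without phosphate and 53.0 with full nutrients, at least 7.31-fold lower, and at 100 h it was at 0.7 without phosphate and 1.4 with full nutrients.

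Dimmer genes at the floor without phosphate included AT2G44430, which encodes a bromodomain protein, at 5.7 without phosphate and 28.3 with full nutrients. AT2G17830, an F-box gene, was at 3.3 without phosphate and 26.9 with full nutrients, and AT2G19780, a leucine-rich repeat gene, was at 6.5 without phosphate and 24.5 with full nutrients. These are bounds of at least 3.90-fold, 3.71-fold and 3.38-fold lower. With the floor at 17.32, the 45th percentile, all 3 came under 2-fold, as did the larger ratio of AT2G40620 (-2.07), 1 of the wall acetylation genes below (TBL24) and 7 of the higher genes, named in the next paragraphs. Other sizes shrank by over 1.5 times with this floor and stayed past 2-fold. Their log2 ratios were -2.88 for AT4G39840, -2.22 for AT2G22510, -3.02 for AT5G39580, -1.84 for AT4G02540, -1.61 for WRKY29, -1.40 for MSRB6 and -1.34 for AT4G24340.

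**Figure D2:**
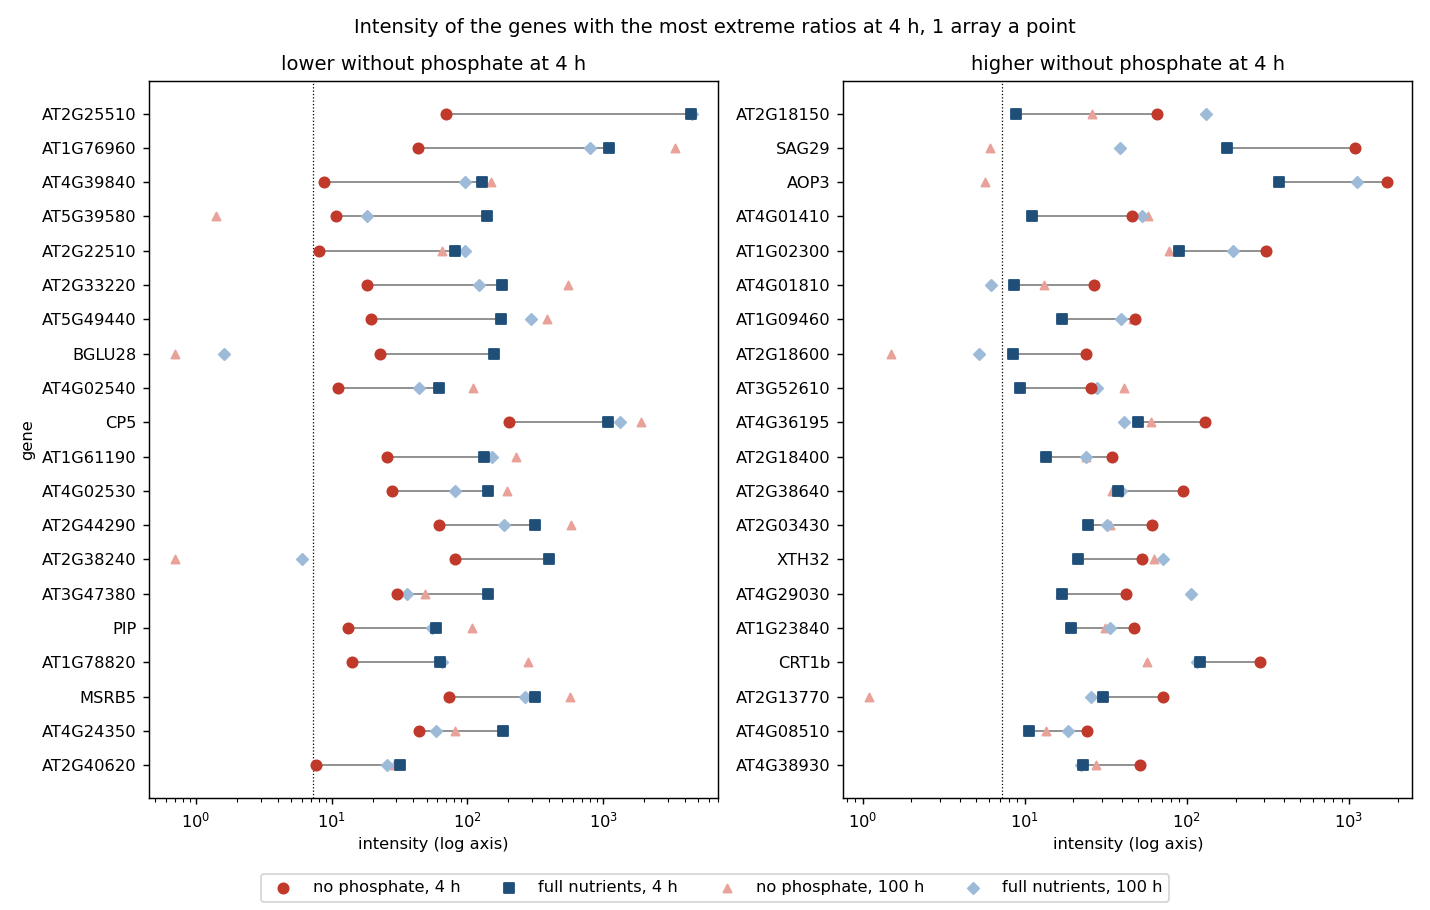
Intensity (log axis) of the 20 genes with the lowest and the 20 with the highest 4 h ratio where neither 4 h array lay under the floor; each point is 1 array, and a line joins the no-phosphate and full-nutrient arrays at 4 h. The dotted line is the floor of 7.25; for AT2G25510 the no-phosphate point at 70.1 stands apart from 3 points between 4438.1 and 4554.7, and for BGLU28 and AT2G38240 both 100 h points lie under the floor.

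The genes that were higher without phosphate at 4 h included a sugar transporter, a glucosinolate enzyme, proteases and a chaperone. SAG29, also known as SWEET15, encodes a sucrose transporter that is induced in ageing leaves. It was at 1085.4 without phosphate and 177.7 with full nutrients at 4 h, 6.11-fold higher, and at 6.1 without phosphate and 38.6 with full nutrients at 100 h. AOP3, which encodes an enzyme of glucosinolate side-chain modification, was at 1706.0 without phosphate and 367.8 with full nutrients at 4 h. At 100 h it was at 5.7 without phosphate and 1119.5 with full nutrients, so the order of the groups at 100 h was opposite and much wider. AT2G18150, a class III peroxidase gene, was at 65.2 without phosphate and 8.9 with full nutrients at 4 h, 7.33-fold higher, and at 25.9 without phosphate and 131.8 with full nutrients at 100 h. Its log2 ratio of 2.87 was 1.91 with the floor at 17.32 and 0.93, under 2-fold, with the mean of both full-nutrient arrays as the control. With that control AOP3 had 1.41 and SAG29 3.71.

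AT1G02300, which encodes a cathepsin B-like cysteine protease, was at 306.6 without phosphate and 90.0 with full nutrients, 3.41-fold higher. AT4G36195, a serine carboxypeptidase gene, was at 128.7 without phosphate and 50.1 with full nutrients (log2 ratio 1.36), and its 100 h arrays were at 60.5 without phosphate and 40.9 with full nutrients. CRT1b, a calreticulin, which folds glycoproteins in the endoplasmic reticulum, was at 281.8 without phosphate and 120.0 with full nutrients on its bright probe set (1.23). In these last 2 genes the no-phosphate array at 4 h was at least 2-fold above all 3 others. The other 2 probe sets of CRT1b did not reach the level, at 1.2 and 0.6 without phosphate and 9.9 and 1.6 with full nutrients.

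XTH32, a xyloglucan endotransglucosylase that remodels the wall, was at 52.8 without phosphate and 21.4 with full nutrients at 4 h, and at 63.1 without phosphate and 71.8 with full nutrients at 100 h. The full-nutrient array at 4 h was the low one of the 4, as it was for AT4G01410, of the late-embryogenesis-abundant hydroxyproline-rich family, at 45.8 without phosphate and 11.1 with full nutrients (2.04, and 1.40 with the higher floor). AT2G38640, a LURP-one-related gene, was at 94.3 without phosphate and 37.5 with full nutrients (1.33), and AT4G38930, related to a ubiquitin fusion degradation factor, at 51.6 without phosphate and 23.0 with full nutrients (1.17). For AT2G38640 and AT4G38930 the full-nutrient array at 4 h was near both 100 h arrays.

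AT4G29030 was at 41.9 without phosphate and 17.1 with full nutrients at 4 h, and at 16.5 without phosphate and 105.4 with full nutrients at 100 h. With the mean of both full-nutrient arrays as the control its ratio of 1.29 turned to -0.02. Of the remaining named genes, AT2G13770 (1.22), AT2G03430, an ankyrin repeat gene (1.32), AT1G23840 (1.28) and AT1G09460, at 48.2 without phosphate and 17.0 with full nutrients, were at 71.0 or less on both 4 h arrays. The dimmest were AT4G01810, related to the vesicle coat protein SEC23 (1.64), AT2G18600, related to a RUB-conjugating enzyme (1.48), AT3G52610 (1.46), AT2G18400, a ribosomal protein L6 family gene (1.35), and AT4G08510 (1.19), with 34.5 or less on the brighter array. AT1G61260 was at 22.7 without phosphate and 6.3 with full nutrients, at least 3.13-fold higher, and AT1G61990, of the mTERF family, at 24.1 without phosphate and 6.9 with full nutrients, at least 3.32-fold higher. These 5 dim genes and the 2 at the floor are the 7 that came under 2-fold with the floor at the 45th percentile.

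The calls at 4 h differed in which array stood apart. These classes use the 4 h values that made the calls, so they describe the calls and support nothing. Of the 298 lower probe sets, 137 (45.97%) had the no-phosphate array at 4 h at least 2-fold below each of the other 3 arrays. Their median intensity was 24.8 without phosphate and 80.6 with full nutrients at 4 h, and 149.4 without phosphate and 84.2 with full nutrients at 100 h. For 67 (22.48%) the full-nutrient array at 4 h was at least 2-fold above each of the other 3. In this class the medians were 34.9 without phosphate and 125.8 with full nutrients at 4 h, and 14.0 without phosphate and 17.5 with full nutrients at 100 h. The remaining 94 (31.54%) had neither array apart.

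The 99 higher probe sets split differently. The no-phosphate array at 4 h was above each of the other 3 in 35 (35.35%), with medians of 108.0 without phosphate and 50.1 with full nutrients at 4 h, and 16.0 without phosphate and 26.7 with full nutrients at 100 h. The full-nutrient array at 4 h was below each of the other 3 in 16 (16.16%), and neither stood apart in 48 (48.48%). PSBW, MSRB5 and KIN2 belong to the class with a low no-phosphate array, and SAG29, CRT1b and APG8A to the class with a high one.

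**Figure D3:**
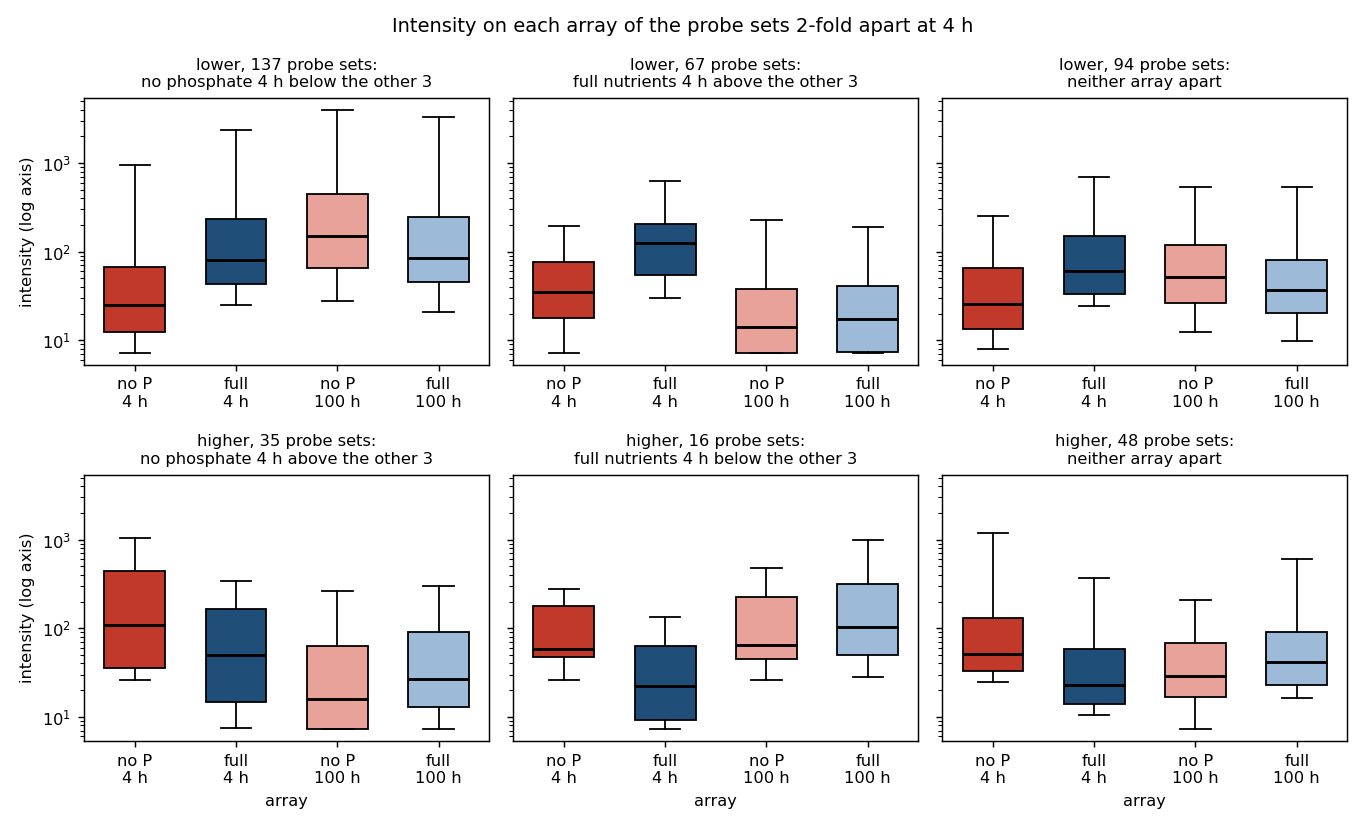
Intensity (log axis, values under 7.25 set to that floor) on the 4 arrays for the probe sets lower (top) and higher (bottom) without phosphate at 4 h, split by which 4 h array was at least 2-fold beyond the other 3; boxes span the quartiles with the median as a line, and whiskers run from the 5th to the 95th percentile. The first class of lower probe sets has its median at 24.8 without phosphate at 4 h and between 80.6 and 149.4 on the other 3 arrays.

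The 100 h pair shares no array with the 4 h pair. Of the 298 probe sets lower without phosphate at 4 h, 250 could be compared at 100 h: 22.4% of these were 2-fold higher without phosphate there and 5.2% were 2-fold lower, with a median log2 ratio of 0.48. Of the 99 higher at 4 h, 79 could be compared at 100 h: 3 were higher and 22 lower without phosphate there, with a median of -0.17. Among the 3724 probe sets that were under 2-fold at 4 h and could be compared at 100 h, 2.52% were higher and 4.51% lower at 100 h, with a median near 0.

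The genes best known for the phosphate response could hardly be followed here, since few had a probe set that names them. Whether others are read by the 4383 probe sets without a listed gene, or the 70 that name several, cannot be told. Of 52 such genes listed (phosphate transporters, SPX genes, acid phosphatases, RNases and lipid remodelling enzymes among them), 2 had a named probe set. WRKY6, which represses the phosphate exporter gene PHO1, was at 78.9 without phosphate and 153.3 with full nutrients, 1.94-fold lower and so just short of 2-fold. Its 100 h values were 40.2 without phosphate and 36.3 with full nutrients. LPR1, a ferroxidase of the root tip response to low phosphate, was at 0.7 without phosphate and 5.7 with full nutrients, both under the floor.

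For the gene lists below, probe sets of a gene were averaged on the log2 scale. Over the 1775 genes compared, 40 (2.25%) were higher and 114 (6.42%) lower without phosphate, with a median log2 ratio of 0.06, and 970 (54.65%) had a positive ratio. Each list is described by its counts and median beside these values. WRKY transcription factors, which control defence and senescence genes, leaned to lower signals: of 7 compared, 2 were 2-fold lower and none higher, 5 of 7 had a negative ratio, and the median was -0.81. WRKY22, which acts beside WRKY29 in the flagellin response, was at 38.3 without phosphate and 77.5 with full nutrients (-1.02). WRKY53, a regulator of leaf senescence, was at 39.2 without phosphate and 68.5 with full nutrients (-0.81). In contrast ZAP1, also called WRKY1, had ratios of 0.58 and 0.23 for its probe sets. The median of the list was -0.29 with spike-in scaling and -0.01 with the mean of both full-nutrient arrays as the control. The latter is over 6 genes, since WRKY29 (-1.435 with that control) did not reach the level there.

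Auxin genes were below their full-nutrient values in 5 of 5, with a median of -0.67, and 1 of them was 2-fold lower. IAA20, an auxin-responsive repressor, was at 79.3 without phosphate and 163.7 with full nutrients on 1 probe set (-1.05) and under the floor on all arrays on its other 2. GH3.3 and WES1, which conjugate auxin to amino acids, were at 108.4 and 66.0 without phosphate and at 187.3 and 105.1 with full nutrients. With the mean of both full-nutrient arrays as the control the median was -0.07, 0 were 2-fold lower and 2 of the 5 had a positive ratio. With spike-in scaling 0 were 2-fold lower and 1 had a positive ratio.

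Photosynthesis genes were lower in 6 of 6, with a median of -0.45, and PSBW alone reached 2-fold. PSBW, a small subunit of photosystem II, was at 1625.4 and 3963.9 without phosphate and at 5785.3 and 5358.3 with full nutrients on its 2 probe sets, which differ in size, with ratios of -1.83 and -0.43. LHCB4.1 and LHCB4.3, which encode light-harvesting proteins, were at 4526.7 and 55.7 without phosphate and at 6484.9 and 95.5 with full nutrients. Most of these genes are among the brightest on the array, where all probe sets at 1000 or more had a median ratio of -0.08. The median of the list was -0.20 after quantile normalization and turned to 0.07 with spike-in scaling. After quantile normalization, and also after cyclic loess, 0 of the 6 were 2-fold lower and 1 had a positive ratio. With spike-in scaling 0 were 2-fold lower and 3 had a positive ratio.

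Cell wall genes were mixed. On this list, matched by words in gene symbols, the 2-fold lower genes were of the TRICHOME BIREFRINGENCE-LIKE (TBL) family. This family adds acetyl groups to wall polymers. Of 13 cell wall genes compared, 1 was 2-fold higher (XTH32) and 4 were 2-fold lower, all TBL genes. Genes outside the list were lower too, among them the pectin methylesterase inhibitor gene AT3G47380 on all 3 of its probe sets. TBL45 was at 39.5 without phosphate and 111.9 with full nutrients (2.83-fold lower), TBL26 at 31.5 without phosphate and 82.5 with full nutrients (-1.39), and TBL24 at 11.8 without phosphate and 31.1 with full nutrients (-1.40). TBL37 was at 72.3 without phosphate and 152.2 with full nutrients (-1.07), while TBL23, at 30.2 without phosphate and 35.3 with full nutrients, was not 2-fold apart. The expansins EXPA4, EXPA8 and EXPA15, which loosen walls, had small ratios, from -0.27 to -0.07. The median of the 13 genes was -0.27 and turned to 0.24 with spike-in scaling, under which 2 of them were 2-fold higher and 0 lower, so that no TBL gene was called.

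Glycosyltransferases leaned lower, while beta-glucosidases, cytochromes P450 and glutathione S-transferases had ratios on both sides of 0. Of 8 glycosyltransferases, which attach sugars to hormones and secondary products, 6 had a negative ratio and 1 was 2-fold lower: UGT71D1, at 16.3 without phosphate and 46.3 with full nutrients (-1.51). The median was -0.46 and turned to 0.07 with spike-in scaling, where 9 genes were compared. UGT74B1, which makes glucosinolates, went the other way without reaching 2-fold, at 175.0 without phosphate and 118.8 with full nutrients. The 4 beta-glucosidases compared ran from -2.80 (BGLU28) to 0.89 (BGLU15, at 122.0 without phosphate and 65.7 with full nutrients). Their median was -0.24. Under quantile normalization (0.41) and spike-in scaling (0.94) the median was positive, but over 3 genes. In each of these settings 1 gene did not reach the level, so these medians and the first are not over the same genes. The 3 cytochromes P450 compared ran from -0.53 to 0.74, and the 3 glutathione S-transferases from -0.07 to 0.65, with none at 2-fold.

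The 4 genes compared of the defence list were all above their full-nutrient values, none by 2-fold, with a median of 0.61. After quantile normalization 1 of them was 2-fold higher. With spike-in scaling 3 were, and also 3 with the mean of both full-nutrient arrays as the control. OSM34, an osmotin, was at 1817.0 without phosphate and 973.6 with full nutrients (0.90), and ChiC, a class V chitinase, at 212.2 without phosphate and 110.9 with full nutrients (0.94). The chitinase CHI was at 1996.8 without phosphate and 1660.5 with full nutrients. The fourth member of the list, XEG113, came in by the words of its name and is a wall glycosyltransferase rather than a defence protein. It is also counted in the cell wall list. At 100 h OSM34 was lower without phosphate, at 43.8, than with full nutrients, at 103.1.

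Cold and dehydration genes divided by gene. Both probe sets of KIN2, a cold-induced protein, were lower, at 1297.4 and 1246.6 without phosphate and at 2952.7 and 2707.0 with full nutrients (-1.19 and -1.12). COR15B, a cold-induced chloroplast protein, was at 137.6 without phosphate and 270.0 with full nutrients (-0.97). The dehydrin COR47 had the opposite sign, at 1098.0 and 1777.9 without phosphate and at 508.2 and 1113.0 with full nutrients (1.11 and 0.68). LTI30, another dehydrin, was at 280.3 without phosphate and 258.8 with full nutrients, so COR47 and LTI30 did not share a size. AT1G54410, also on the list, had the other sign, at 1781.5 without phosphate and 2120.9 with full nutrients (-0.25). Over the 11 genes compared, 1 was 2-fold lower, 7 had a positive ratio, and the median was 0.18.

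Of the ATG8 autophagy genes, 1 of 6 was 2-fold higher without phosphate and none lower. All 6, whose products coat the forming autophagosome, had positive ratios, from 0.06 to 1.08, where 54.65% of all genes compared did. Their median was 0.46, and across the scalings tried it ran from 0.46 to 0.98. Spike-in scaling adds to every ratio whose arrays are both above the floor. It could only raise this median, so the positive value under it shows nothing further. With the mean of both full-nutrient arrays as the control, 5 of the 6 had a positive ratio. APG8A, also called ATG8A, was at 347.4 without phosphate and 164.4 with full nutrients, the 1 of the 6 at 2-fold, and came under it with cyclic loess (0.96). ATG8C was at 126.5 without phosphate and 73.0 with full nutrients (0.79), and the bright ATG8E at 1000.4 without phosphate and 960.0 with full nutrients (0.06). The 100 h values of APG8A were 149.5 without phosphate and 131.0 with full nutrients, near the full-nutrient array at 4 h.

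Of 13 protease genes compared, 10 had a positive ratio, and the median was 0.49. It was positive under every scaling tried, but spike-in scaling could only raise it. By the rule of size 1 gene was 2-fold higher and 1 lower. The higher one was scpl29, a serine carboxypeptidase-like gene, at 75.1 without phosphate and 34.8 with full nutrients (1.11), and the lower one PIP. APM1, an aminopeptidase, was at 368.0 without phosphate and 196.8 with full nutrients (0.90), and APA1, an aspartic protease of the vacuole, at 1109.6 without phosphate and 617.1 with full nutrients (0.85). Of the 6 ubiquitin-system genes compared, 4 had a positive ratio, near the share over all genes, none reached 2-fold, and the median was 0.34. UBP16 (0.49) and UBP18 (0.74) are members of both lists, so the lists are not separate.

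Sugar genes had no common direction. SAG29 was 1 of 5 compared, and AMY1, an alpha-amylase, was at 51.8 without phosphate and 30.2 with full nutrients (0.78). SBE2.2, a starch branching enzyme, was at 63.1 without phosphate and 101.8 with full nutrients (-0.69), and the vacuolar fructose transporter SWEET17 at 30.6 without phosphate and 40.7 with full nutrients (-0.41). TMT1, which moves sugar into the vacuole and is read by 2 probe sets, had ratios of -1.03 and -0.79. The succinate dehydrogenase genes SDH1-1 and SDH3-2 were at 220.7 and 325.0 without phosphate and at 173.6 and 200.6 with full nutrients. Among calmodulin-like genes CML42, which has a role in defence against herbivores, was at 49.4 without phosphate and 115.8 with full nutrients (-1.23). The 3 histone genes compared had a median of 0.56, from -0.42 (HTB2) to 0.89 (HIS1-3, a linker histone induced by drought).

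**Figure D4:**
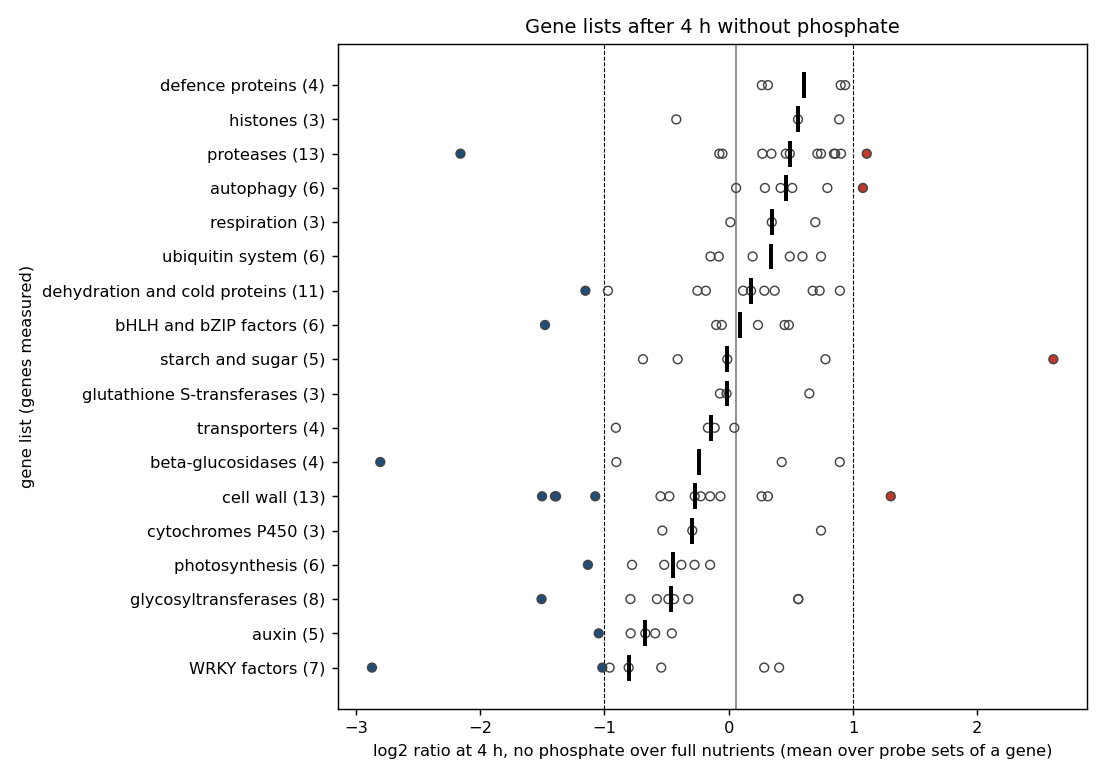
Each circle is a gene (mean log2 ratio over its probe sets, no phosphate over full nutrients at 4 h), grouped by list, with the number compared in brackets; black bars are list medians, the grey line is the median of all genes (0.06), dashed lines mark 2-fold, and filled circles are past it (blue lower, red higher). Among the lists drawn, WRKY (-0.81) and auxin (-0.67) have the lowest medians and defence proteins (0.61) the highest. Cell type markers are left out. With spike-in scaling the medians of photosynthesis, glycosyltransferases, cytochromes P450, cell wall, beta-glucosidases, transporters, glutathione S-transferases and starch and sugar turn positive. The last 2 also do so after quantile normalization, as do beta-glucosidases. In both settings the beta-glucosidase median is over 3 genes, and with spike-in scaling that of glycosyltransferases is over 9.

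Probe sets of the same gene give a measure of error within these arrays. Over 86 genes with 183 compared probe sets, the log2 ratio at 4 h had an SD of 0.35 between probe sets of a gene, and this leaves out any spread between plants or hybridisations. Of 20 genes with a probe set past 2-fold, 8 had all their probe sets past 2-fold in the same direction, all of them lower. None of the 20 had probe sets called in opposite directions. Among the 20, a higher probe set was found only in COR47, AT2G43590 and AT2G47960, on 1 of 2 probe sets each. The others had lower calls, so this agreement says little about higher calls. The 8 are AT3G47380, CP5, AT1G78820, AT4G24350 and KIN2, described above, with AT4G20860 and AT1G30700, both of the berberine bridge enzyme family, and AT1G21830. Whether probe sets of a gene share probes was not tested.

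Genes next to each other on the chromosome were sometimes lower together. Of 307 pairs of adjacent genes compared, 5 were 2-fold lower in both members and 0 were higher in both. Among the 44 compared neighbours of lower genes, 10 were lower (22.73%, each pair seen from both sides) against 6.42% of all genes compared. MSRB5 with MSRB6 and AT4G24340 with AT4G24350 are neighbours of 1 family each. AT4G02530 and AT4G02540 (-2.36 and -2.46), AT2G34060, a peroxidase gene, and TBL37 (log2 ratio -1.07), and AT1G30690 and AT1G30700 (-1.17 and -1.20) are not. Whether neighbours of a family share probes was not tested.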

How the data were processed

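Total RNA of each leaf sample was labelled and hybridised to 1 Affymetrix array, per the labels' protocols. The authors deposited a linear intensity for each probe set and array. How it was computed (software, background, summary) is not given in the sources used here. The mean after trimming 2% at each end was 100.2 on every array, so the arrays had been scaled alike and no further scaling was applied.

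Of 8297 probe sets, 50 controls were left out. Values under a floor of 7.25 (the 30th percentile, averaged over the arrays) were raised to it, and log2 ratios were computed where the brighter 4 h array reached 22.45 (mean of the medians). A ratio of 2-fold or more was called. With 1 array a group no test was run. The rule was run on simulated data, with changes larger than 2-fold placed only in probe sets well above the level. That run cannot show how the rule does near 2-fold or near the level. Of the probe sets, 3794 name 1 gene in the platform annotation, 70 name several and 4383 are not listed. Names and neighbours came from the RefSeq gene table (TAIR10.1), which matched 3784 probe sets to 3592 loci.

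Named genes are the 20 largest ratios in each direction above the floor on both arrays, the 6 brightest in each direction at the floor (2 were found among higher genes), up to 3 called genes of each list with 3 or more genes compared, every measured phosphate-starvation and marker gene, and other probe sets of these genes. TBL37, CML42, TMT1, AT1G21830, AT4G20860, AT1G30690, AT1G30700, AT2G34060 and list members under 2-fold were chosen after their values were seen. Lists were matched by locus or by words in RefSeq symbols and synonyms, so genes without a descriptive symbol are missed. Members and lists were chosen with earlier results of these data known. Python 3.11.15 (numpy 2.4.6, pandas 2.3.3, matplotlib 3.10.9) and R 4.3.3 with limma 3.58.1 (quantile and cyclic loess normalization) were used. The 100 h arrays were used only for their values, and sequences are not shown.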

Additional observations from a re-analysis of the deposited data

Results flagged for a closer look

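For 18 genes named above, the phosphate ratio at 100 h had the opposite direction to that at 4 h, at least 2-fold at both times, so the arrays of 1 time moved one way and those of the other time the opposite way. The difference between the times was not tested, since each ratio rests on 1 array a group. The log2 ratios at 100 h, no phosphate over full nutrients, are given here. Of the genes higher without phosphate at 4 h, AOP3 had -7.27 at 100 h, AT4G29030 -2.67, SAG29 -2.41, AT2G18150 -2.35, AT2G13770 -1.82, AT1G02300 -1.31 and CRT1b -1.02. For AOP3 and SAG29 the value without phosphate at 100 h lay under the floor, so these 2 are bounds, as is that of AT2G13770, and on the other side that of AT2G17830, whose full-nutrient value lay under the floor.

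Of the genes lower without phosphate at 4 h, AT2G33220 had 2.18 at 100 h, AT1G78820 2.11 and 1.62 on its 2 probe sets, AT1G76960 2.07 and TBL45 1.83. MSRB6 had 1.65 and its neighbour MSRB5 1.098, and the neighbours AT4G02540 and AT4G02530 had 1.33 and 1.27. AT2G44290 had 1.65, AT2G17830 1.64 and AT2G44430 1.41. Groups of 1 array cannot be searched for samples that lie far from their group.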

How the results depend on the processing

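No paired analysis was possible because each group has 1 array. As reported, 99 were higher and 298 lower. Without the level filter 150 were higher, with both arrays at 100 or more 23 higher and 51 lower (of 1762), and with a 3-fold threshold 20 higher and 115 lower. Spike-in scaling gave 742 higher and 112 lower, and the mean of both full-nutrient arrays as control gave 233 higher. The floor at the 45th percentile, no floor, quantile normalization and cyclic loess kept both counts within 1.5 times, from 75 to 120 higher and from 241 to 298 lower. Of the 64 named probe sets past 2-fold, 12 came under 2-fold with the higher floor, 2 after quantile normalization (WRKY22 and 1 probe set of AT1G78820), 1 after cyclic loess (APG8A) and 10 with spike-in scaling. The 10, all lower ones, were UGT71D1, TBL45, TBL24, TBL26, IAA20, WRKY22, both probe sets of KIN2 and 1 each of CP5 and AT1G78820. With the mean control 19 came under 2-fold, 11 of them higher ones, and the 8 lower ones included BGLU28, AT2G38240, WRKY22, IAA20, TBL26 and AT2G17830. With it, AT2G38240 reversed to 0.58 and AT4G29030 to -0.019, and none reversed elsewhere. The cause was not tested. Dim probe sets limit the rest: 30.56% of probe sets without phosphate and 27.82% with full nutrients lay under the floor.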

Other observations

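Many of the probe sets that differed at 4 h have no gene name here: 56 of the 99 higher and 168 of the 298 lower. The probe set 12740_s_at was at 15.5 without phosphate and 916.0 with full nutrients at 4 h, and at 2141.7 without phosphate and 434.1 with full nutrients at 100 h. The probe set 17014_s_at was at 27.5 without phosphate and 502.4 with full nutrients at 4 h. In the other direction, 19987_at was at 162.9 without phosphate and 22.9 with full nutrients at 4 h, and at 476.3 without phosphate and 432.9 with full nutrients at 100 h, and 20650_i_at was at 41.1 without phosphate and 7.5 with full nutrients.

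The array's own 3' controls differed in direction: actin was at 2493.8 without phosphate and 1737.7 with full nutrients, GAPDH was at 2162.0 without phosphate and 1876.1 with full nutrients, and ubiquitin was at 3622.6 without phosphate and 5643.1 with full nutrients.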
